A study of Rattus norvegicus with 3 samples.

Results

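The smooth muscle contractile markers are the genes from which a vascular smooth muscle cell builds its actin and myosin apparatus, and 10 of them were followed here: Acta2, Actg2, Myh11, Tagln, Smtn, Myl9, Lmod1, Des, Csrp1 and Mylk. HA-tagged TET2 was mapped by CUT&Tag, in which a transposase is tethered through an antibody against the HA tag and inserts adapters into nearby DNA. A peak was taken as a member when its deposited gene symbol, or the gene whose exon or intron its annotation names, was one of the 10. By this rule 23 of 35044 peaks were members, 2 of 9523 in the Myocd-LSD1 list and 21 of 25521 in the Control list.

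All 3 samples were rat aortic smooth muscle cells (SMC) that had received an adenovirus carrying HA-TET2 for 24 h, with 500000 cells per assay. The Myocd-LSD1 group (1 sample) is a line named for myocardin and the histone H3 lysine 4 demethylase LSD1, and the labels do not describe its construct further. The Control group (2 samples) is labelled WT. The study asked where TET2 bound in both kinds of cell. TET2 was overexpressed in every sample, and the lists hold no sample without HA-TET2 to give a background. Each group has 1 peak list, so the values carry no spread between replicates and the groups were compared without a test. Peaks do not measure expression, so the smooth muscle identity of the cells could not be checked against these markers.

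In a contractile smooth muscle cell, myocardin binds the factor SRF on CArG boxes, short AT-rich elements near the start sites of these genes, and the complex drives their transcription. TET2 oxidises 5-methylcytosine at CG dinucleotides, a step toward DNA demethylation, and in vascular smooth muscle it is known as a factor that favours the contractile state. LSD1 removes methyl groups from mono- and dimethylated H3 lysine 4, a mark found over active and poised regulatory DNA.

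Acta2 and Des were the members with a Control peak across an annotated start site, and the 250 bases before each start are shown because the peaks touch them. The sequences are from RefSeq on build GRCr8, whereas peaks are on rn6, so they are related only by distance from the start site. The deposited Acta2 gene spans 12781 bases in rn6 and also 12781 in GRCr8, and that of Des 7715 in rn6 and 7719 in GRCr8. Capitals mark CG dinucleotides and, as runs of 10, CArG boxes with at most 1 core base other than A or T.
Acta2, chr1:241172504-241172753, minus strand: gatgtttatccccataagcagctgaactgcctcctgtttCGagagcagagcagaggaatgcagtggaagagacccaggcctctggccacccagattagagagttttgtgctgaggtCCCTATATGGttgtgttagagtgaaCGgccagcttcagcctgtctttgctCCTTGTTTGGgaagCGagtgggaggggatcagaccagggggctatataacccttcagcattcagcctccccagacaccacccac
Des, chr9:84299376-84299625, plus strand: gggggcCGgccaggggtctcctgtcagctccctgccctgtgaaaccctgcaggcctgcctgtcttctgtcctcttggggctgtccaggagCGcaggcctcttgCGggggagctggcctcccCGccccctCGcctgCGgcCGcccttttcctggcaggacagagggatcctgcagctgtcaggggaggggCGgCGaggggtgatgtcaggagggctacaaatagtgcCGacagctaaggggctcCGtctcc

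The Acta2 sequence holds a pair of near-CArG boxes, CCCTATATGG and CCTTGTTTGG. They begin at positions -134 and -84 when the start base is counted as 0. Over windows from 250 before to 50 after the start site, read on both strands, a CArG box with an all-AT core occurred in 1.64% of 33469 windows. The near form occurred in 9.42% of windows, and at least 2 near forms in 0.846%. Windows were available for 6 members (Acta2, Actg2, Smtn, Des, Csrp1 and Mylk), and Acta2 alone of these held either form. CG dinucleotides numbered 4 in the Acta2 window and 13 in the Des window, 22 in Csrp1, 15 in Smtn, 5 in Actg2 and 2 in Mylk, beside a median of 7 over all windows. The windows of Actg2, Smtn and Mylk did not begin at an end of the gene, and may belong to another start site than the one the peaks were measured from.

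Of the 10 contractile markers, 1 had an HA-TET2 peak in Myocd-LSD1 SMC and 8 had one in control SMC. Mylk was the marker with peaks in both lists. Acta2, Actg2, Tagln, Smtn, Myl9, Des and Csrp1 had a peak in the Control list alone. Over all genes with a Control peak, 47.1% also had a Myocd-LSD1 peak, and 1 of 8 markers did (12.5%). In the other direction, 82.3% of all genes with a Myocd-LSD1 peak also had a Control peak, as did Mylk. The exact binomial (Clopper-Pearson) 95% interval of the marker share ran from 0.316% to 52.7% and so held the share of all genes. Intervals here cover counting error only.

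Myh11, the smooth muscle myosin heavy chain, and Lmod1, leiomodin 1, which nucleates actin filaments, had no row in either list used here. In the lists, 22 Myocd-LSD1 and 44 Control peak numbers are missing besides that of peak 1, so no call at these genes cannot be told apart from a row that is not in the files used here. The genes next to them had a Control peak, apart from Nde1, and only Shisa4 had a Myocd-LSD1 peak. Next to Lmod1, Shisa4 had a Myocd-LSD1 peak of 5 fragments in its 3′ UTR and a Control peak of 13 fragments within 1 kb of its start, and Timm17a had a Control promoter peak of 5 fragments. Next to Myh11, Cep20 (Fopnl in the files) had a Control promoter peak of 4 fragments, and Nde1 had none.

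**Figure D1:**
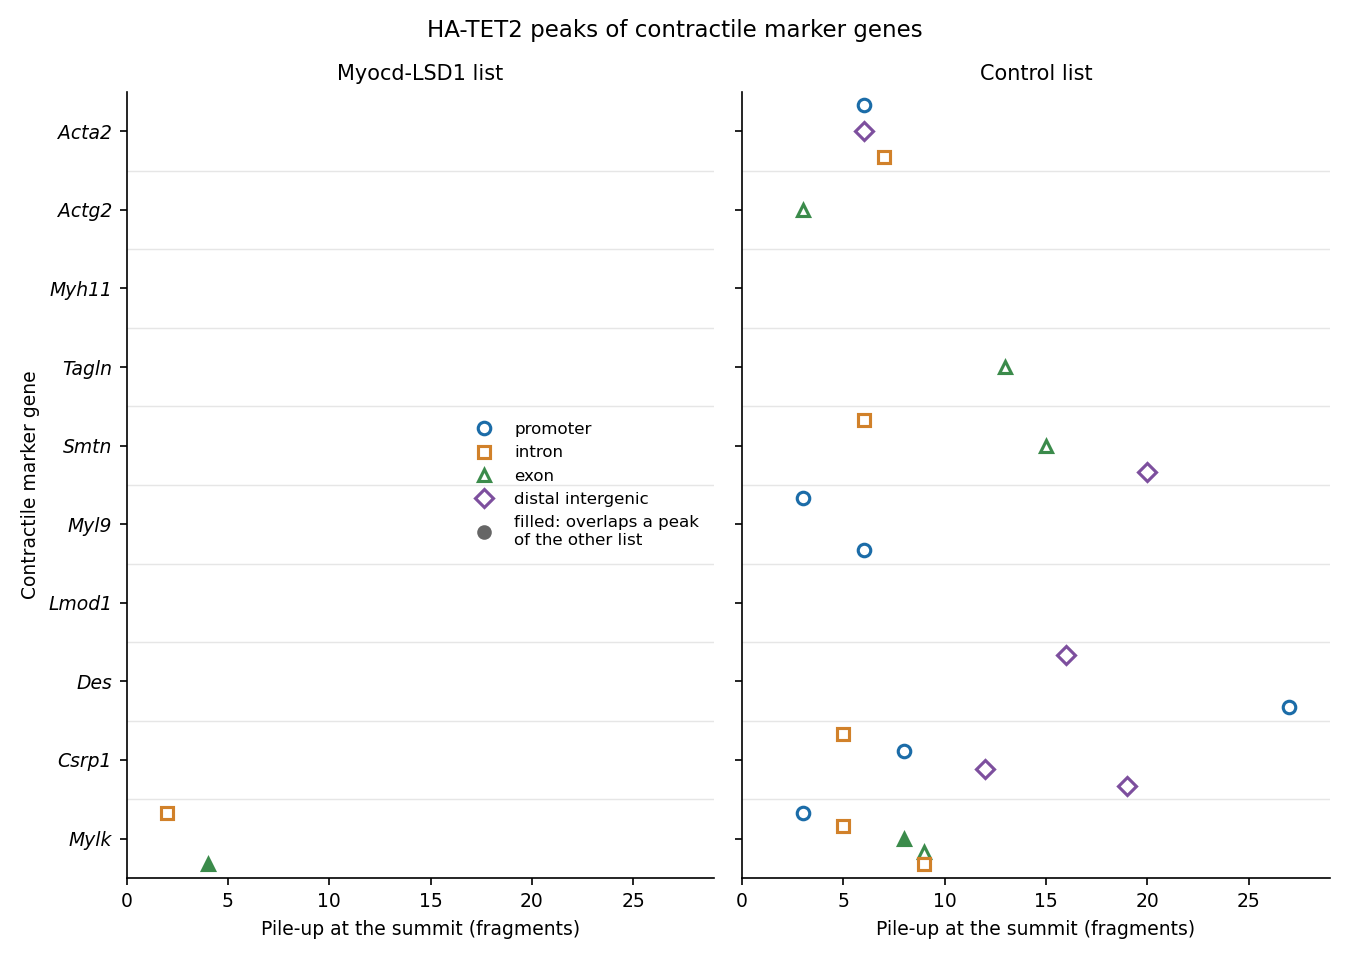
Each symbol is 1 HA-TET2 peak of a contractile marker gene, placed by its pile-up in fragments (x axis) and gene (y axis), in the Myocd-LSD1 list (left) and the Control list (right). Shape gives the annotation class and a filled symbol overlaps a peak of the other list. Mylk alone has symbols on the left, at 2 and 4 fragments, and the Control peaks run from 3 to 27 fragments.

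Peak by peak, 1 of the markers' 21 Control peaks was overlapped by a Myocd-LSD1 peak by at least 1 bp (4.76%, interval 0.120 to 23.8). The same share over all Control peaks was 22.0%, which lies inside the interval. Of the 2 Myocd-LSD1 peaks, 1 was overlapped by a Control peak, against 59.4% of all Myocd-LSD1 peaks. By class, 0 of 6 promoter peaks were overlapped (upper bound 45.9%, all Control promoter peaks 37.8%). In introns it was 0 of 5 (upper bound 52.2%, all 14.4%), in exons 1 of 5 (interval 0.505 to 71.6, all 8.52%) and at distal intergenic sites 0 of 5 (upper bound 52.2%, all 18.9%). Of the 5 markers with a Control promoter peak, 0 had a Myocd-LSD1 promoter peak (upper bound 52.2%), where the share was 43.4% of all genes with a Control promoter peak. Each of these intervals held the share of all. With 5 or 6 marker peaks per class, even 0 overlapped could not have shown a lower share. Some of the peaks also share a gene, so the intervals are not a test.

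Depth is part of this comparison. The pile-up of a peak, the number of fragments that overlap at its summit, was recovered from the deposited values. The median pile-up was 5 in Myocd-LSD1 and 7 in Control, and the lowest local background was 0.0633 and 0.175 fragments. The ratio of Control to Myocd-LSD1 background was 2.76, so from the number of peaks alone, fewer bound sites and a thinner Myocd-LSD1 library cannot be told apart. Of all Control peaks, 9.99% were overlapped at 3 to 6 fragments, 21.7% at 7 to 11 and 41.7% at 12 or more, bands set from the Control quartiles after the values were seen. The markers' Control peaks were overlapped in 0 of 9, 1 of 5 and 0 of 7 cases in these bands. Of all Control peaks within 1 kb of a start site 44.5% were overlapped, against 0 of 4 of the markers' (upper bound 60.2%). Those 4 rested on 3, 3, 6 and 27 fragments. In that class, 16.4% of all Control peaks were overlapped at 3 fragments, 32.6% at 6 and 70.4% at 12 or more. When all Control peaks were weighted to the markers' classes and pile-ups, 20.6% were overlapped, or 4.32 of 21 peaks where 1 was seen. The interval of 1 of 21 (0.120% to 23.8%) holds this share. The weighting took all promoter peaks within 3 kb as 1 class.

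**Figure D2:**
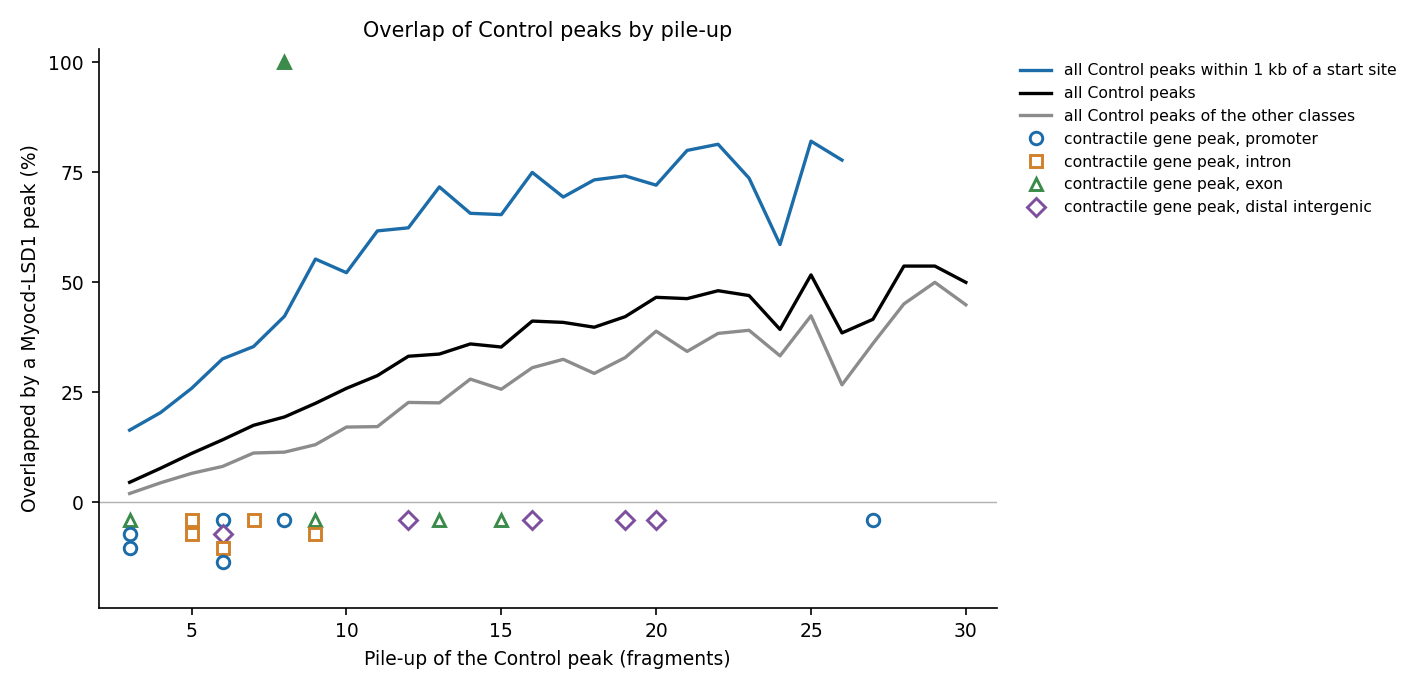
The lines give the percent of all Control peaks overlapped by a Myocd-LSD1 peak (y axis) at each pile-up in fragments (x axis, pile-ups with at least 20 peaks), for peaks within 1 kb of a start site, all peaks and the other classes. Symbols are the 21 Control peaks of the contractile markers, drawn at 100 where overlapped (1 Mylk exon peak at 8 fragments) and stacked under 0 where not.

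The actins are the thin filament proteins of the contractile apparatus. Acta2, the smooth muscle α-actin of vessels, had 0 Myocd-LSD1 peaks and 3 Control peaks. One Control peak lay across the start site (rn6 chromosome 1, 252550345 to 252550672, 328 bp), with a fold enrichment of 4.79 on 6 fragments. It ran from position -278 to 49 with its summit at -15, so it spans the whole 250 bases printed above, near-CArG boxes included, if the start base is the same in both builds. Another lay in intron 3 of 8 (252544562 to 252544954, fold 5.81, 7 fragments) and the third 6050 bp upstream (252556444 to 252556699, fold 5.55, 6 fragments). The 3 peaks were alike in height and none was overlapped. Among all Control peaks, 14.2% of those with 6 fragments and 17.5% of those with 7 were overlapped. The nearest Myocd-LSD1 peak to the Acta2 promoter peak was at the promoter of Fas, the death receptor gene, 38883 bp away.

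Actg2, the γ-actin of visceral smooth muscle, had 0 Myocd-LSD1 peaks and 1 Control peak, in an exon of the gene 8030 bp after the start site (chromosome 4, 115221408 to 115221654, fold 3.25). It rested on 3 fragments and was among the weakest peaks of the Control list, at rank 24957 of 25521 by fold. Of the 1651 Control peaks with 3 fragments, 4.54% were overlapped.

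Myosin light chain genes regulate how myosin pulls on actin. Mylk encodes myosin light chain kinase, which phosphorylates the light chain and starts contraction. It had 2 Myocd-LSD1 peaks and 5 Control peaks. The overlapped pair lay in an exon of Mylk, about 122 kb into the gene from its farthest upstream start site. The Myocd-LSD1 peak (chromosome 11, 69137870 to 69138133) had a fold of 4.47 on 4 fragments, and the Control peak (69137885 to 69138147) a fold of 5.74 on 8 fragments. They shared 249 bp and ranked by fold within the top 55.0% of the Myocd-LSD1 list and the top 39.6% of the Control list.

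The other Myocd-LSD1 peak of Mylk lay in intron 1 of 31 (69233758 to 69233973) with a fold of 2.82 on 2 fragments. That is the lowest pile-up in the Myocd-LSD1 list, and the peak ranked 7816 of 9523 by fold. No Control peak lay within 25727 bp of this intron peak. The other 4 Control peaks were at the farthest upstream start site (69259701 to 69259876, fold 3.25, 3 fragments), in intron 2 of 31 (69165320 to 69165648, fold 6.74, 9 fragments), in an exon about 204 kb from that start site (69055761 to 69056209, fold 6.51, 9 fragments) and in intron 22 of 31 (69049591 to 69049797, fold 4.56, 5 fragments). Like the Actg2 peak, the Control peak at the start site was at rank 24957 of 25521 by fold. The exon numbers deposited for this minus-strand gene run along the chromosome, from exon 11 of 32 at the peak farther from the upstream start to exon 29 at the overlapped one.

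Myl9, the regulatory light chain that Mylk phosphorylates, had 0 Myocd-LSD1 peaks and 2 Control peaks, both in the promoter class. One lay 254 bp before a start site (chromosome 3, 152857076 to 152857319, fold 3.36) and rested on 3 fragments. The other lay 2374 bp after a second annotated start (152862720 to 152862895, fold 5.28, 6 fragments). No Myocd-LSD1 peak was found within 148889 bp of either, a wider gap than at any other marker peak.

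Des, Csrp1, Smtn and Tagln encode proteins that organise the filaments, and they carried the taller Control peaks. Des, desmin, the intermediate filament protein of muscle, had 0 Myocd-LSD1 peaks and 2 Control peaks. The promoter peak (chromosome 9, 82556553 to 82557215, fold 8.65, 27 fragments, 663 bp) was the tallest and widest of all marker peaks. It ran from position -21 to 641 with its summit at 263, so it covers the end of the printed sequence and lies mostly inside the gene. A distal peak 12761 bp upstream (82543563 to 82543813, fold 8.65, 16 fragments) had nearly the same fold. Of all Control peaks within 1 kb of a start site and of at least 12 fragments, 70.4% were overlapped, and the Des promoter peak was not.

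Csrp1, a LIM-domain protein of actin filaments, had 0 Myocd-LSD1 peaks and 4 Control peaks on chromosome 13. A pair of distal peaks stood upstream, at 7560 bp (52545812 to 52546283, fold 8.10, 19 fragments) and at 6287 bp (52547279 to 52547556, fold 5.22, 12 fragments). The others lay 1444 bp after the start site (52555287 to 52555627, fold 5.01, 8 fragments) and in intron 2 of 5 (52567933 to 52568288, fold 3.73, 5 fragments). The intron peak carries the symbol of a neighbouring provisional gene and counts as Csrp1 by its host gene. A Myocd-LSD1 peak lay 7341 bp from the intron peak, at that neighbour's promoter.

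Smtn, smoothelin, a protein of contractile smooth muscle that associates with actin, had 0 Myocd-LSD1 peaks and 3 Control peaks on chromosome 14. The tallest was distal, 24019 bp upstream (83800890 to 83801258, fold 8.51, 20 fragments). One lay in an exon (83764316 to 83764725, fold 5.48, 15 fragments) and one in intron 19 of 19 (83757100 to 83757287, fold 4.06, 6 fragments). The last carries the symbol of Selm, the selenoprotein M gene next to it. The distal peak was 5931 bp from a Myocd-LSD1 peak, the shortest gap of any marker peak that was not overlapped.

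Tagln, transgelin or SM22α, an actin-binding protein, had 0 Myocd-LSD1 peaks and 1 Control peak. This peak (chromosome 8, 50231598 to 50232009, fold 5.09, 13 fragments) lay 3229 bp upstream of Tagln, inside an exon of the neighbouring gene Sidt2. Neither list had a peak within 3 kb of the Tagln start site.

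The 7 Control peaks of at least 12 fragments thus belonged to Des (27 and 16), Smtn (20 and 15), Csrp1 (19 and 12) and Tagln (13). Of them 4 were distal intergenic. The 0 overlapped of 7 had an upper bound of 41.0%, beside 41.7% of all Control peaks of that height. The band was set after the values were seen and some of these peaks share a gene, so this bound is not a test. Among all distal intergenic Control peaks of at least 12 fragments, 45.9% were overlapped.

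Other features of the markers' peaks were set beside those of all peaks, without a test. The median fold enrichment was 3.65 over the 2 Myocd-LSD1 peaks (all 4.72) and 5.28 over the 21 Control peaks (all 5.24), and 11 of the 21 lay above the median of all. The median Control width was 328 bp, against 315 bp for all. Promoters held 28.6% of the markers' Control peaks (11.3 to 52.2, all 30.3%), introns 23.8% (all 29.8%), exons 23.8% (8.22 to 47.2, all 10.7%) and distal intergenic sites 23.8% (all 26.9%). The median distance to the assigned start site was 6287 bp, against 11082 bp for all.

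Within 50 kb of the 13 deposited start sites of the 8 markers, other genes' peaks were found in both lists. There were 9 such Myocd-LSD1 peaks and 24 such Control peaks. Of the 24, 6 were overlapped (interval 9.77% to 46.7%), beside 1 of the 21 marker peaks. The share of all Control peaks, 22.0%, lies inside this interval and inside that of the markers. Around Des the promoter of Dnpep, an aspartyl aminopeptidase gene, had a Myocd-LSD1 peak of 22 fragments and a Control peak of 39. Speg, a striated and smooth muscle kinase gene on the other side of Des, had 8 and 16 fragments. The promoters of Fas near Acta2 (3 and 8 fragments), Dguok near Actg2 (5 and 9) and Phlda3 near Csrp1 (9 and 9) were also in both lists. Around Myl9 and Tagln 0 of 3 neighbouring Control peaks each were overlapped, and around Mylk 0 of 1. The neighbours' Control peaks lay within 1 kb of a start site more often than the markers', of which 4 of 21 did. In that class 44.5% of all Control peaks were overlapped. Every overlapped neighbour was in it, apart from the distal intergenic peak near Smtn. The shares of markers and neighbours were not matched for class, and whether they differ was not tested.

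**Figure D3:**
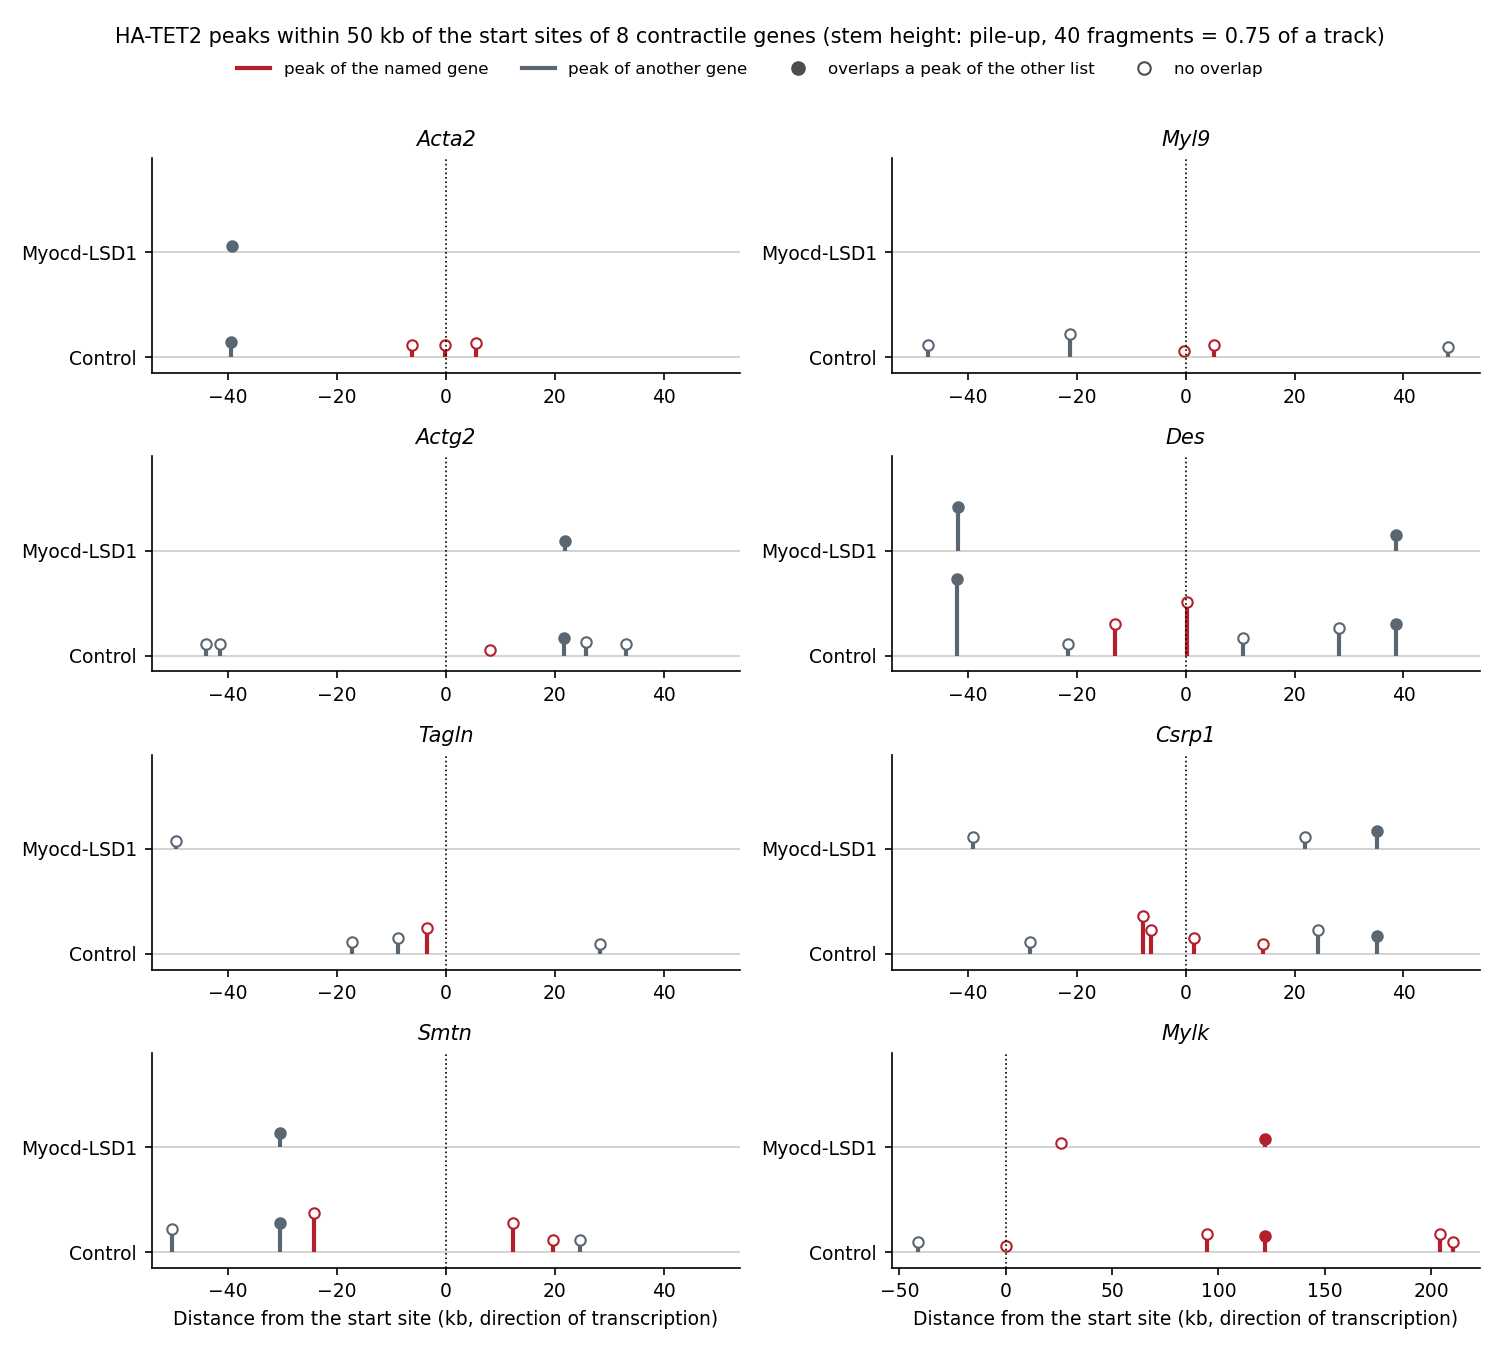
Peaks within 50 kb of the start sites of 8 markers, by distance in kb from the start site in the direction of transcription (the farthest upstream start for Myl9, Smtn and Mylk), with Myocd-LSD1 above Control. Stems rise with the pile-up, red marks the named gene and grey another gene, and filled heads overlap a peak of the other list. Outside Mylk, every Myocd-LSD1 stem belongs to another gene.

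Other genes of the apparatus were set beside the markers. Of 40 further contractile and associated genes, 16 had a Myocd-LSD1 peak and 32 a Control peak, and 16 of the 32 were in both (interval 31.9% to 68.1%, all genes 47.1%). Of their 93 Control peaks 18 were overlapped (19.4%, 11.9 to 28.9, all 22.0%), and 0 genes had a Myocd-LSD1 peak alone. The 6 of highest Control fold were Nexn, Filip1l, Myl12a, Vcl, Synm and Actn1, with folds between 14.5 (Nexn) and 10.5 (Actn1). Vinculin (Vcl) and α-actinin 1 (Actn1), which anchor actin filaments, and synemin (Synm), an intermediate filament partner of desmin, had this peak overlapped. So did Filip1l, whose strongest Control peak lay in an intron of Cmss1. The strongest Myocd-LSD1 peak given to Filip1l rested on 3 fragments. The Vcl peaks had 13 Myocd-LSD1 and 20 Control fragments. The strongest peak given to Nexn, nexilin, lay in an intron of Miga1 and was not overlapped, while that of Myl12a, a light chain of nonmuscle myosin, was overlapped by a peak assigned to another gene.

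Members of the same protein families outside the smooth muscle set also had peaks. Of 21 such paralogs 9 had a Myocd-LSD1 peak and 13 a Control peak, and 6 of the 13 were in both (46.2%, all genes 47.1%). Of their 25 Control peaks 6 were overlapped (24.0%, 9.36 to 45.1, all 22.0%). The cytoplasmic actins Actb and Actg1 and the nonmuscle myosins Myh9 and Myh10 were in both lists at the promoter (for Actg1, 1 to 2 kb from the start site). The strongest Actb peak of each list was distal intergenic, and the Control one (51 fragments) was not overlapped. The Myh9 promoter peak had 13 Myocd-LSD1 and 21 Control fragments, and the Actg1 promoter peak 19 and 29. Acta1, Actc1, Mylk2, Myl3 and Vim had Myocd-LSD1 peaks too, those of Actc1 and Mylk2 on 2 fragments each and that of Vim, vimentin, on 7, and these last 3 had no Control peak. Another 7 paralogs (Myh7, Smtnl2, Tagln2, Csrp2, Csrp3, Mylk3 and Myl2) had Control peaks alone, with folds between 3.36 (Myl2) and 6.16 (Csrp2) for the strongest peak of each gene. The intervals of the markers, the other contractile genes and the paralogs overlap, and no difference between these lists was tested.

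**Figure D4:**
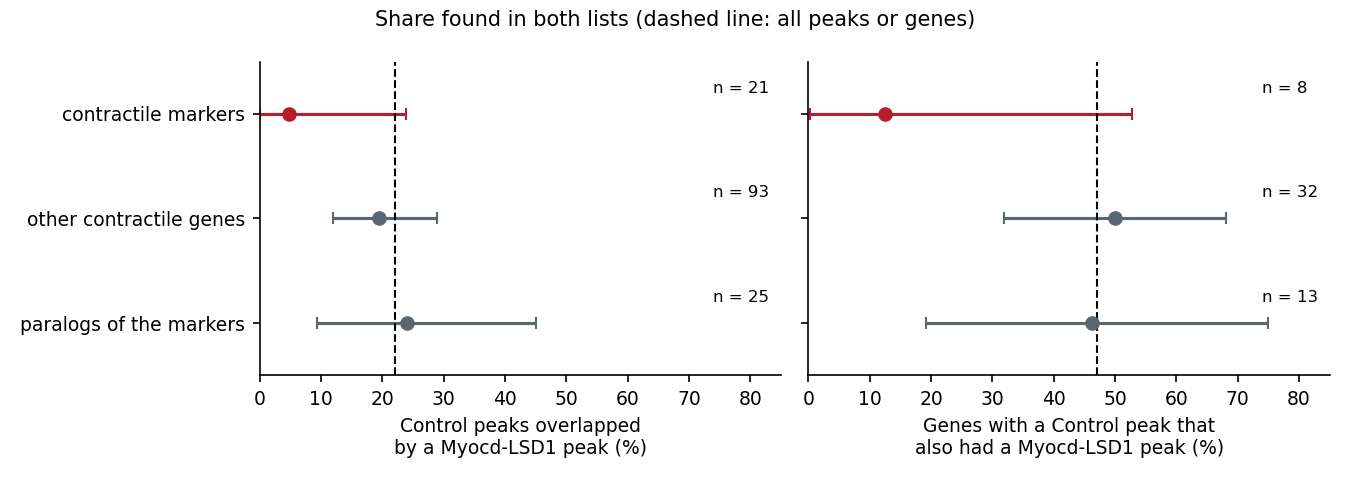
Percent of Control peaks overlapped by a Myocd-LSD1 peak (left) and percent of genes with a Control peak that also had a Myocd-LSD1 peak (right), for the contractile markers, the other contractile genes and the paralogs, with exact 95% binomial intervals. Dashed lines give all peaks (22.0%) and all genes (47.1%), and each interval reaches its line.

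Marker lists of other cell types had peaks as well, and expression of these genes was not measured here. Of 5 endothelial markers 1 had a Myocd-LSD1 peak and 5 a Control peak, of 5 macrophage markers 0 and 3, and of 5 skeletal and cardiac muscle markers 1 and 3. Of the markers with a Control peak, 1 of 5, 0 of 3 and 1 of 3 also had a Myocd-LSD1 peak, against 47.1% of all genes. Of the 11, 3 and 6 Control peaks of these lists, 2, 0 and 1 were overlapped, against 22.0% of all Control peaks. The upper bounds were 51.8%, 70.8% and 64.1%, so each interval held the share of all.

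Genes whose Control peak within 1 kb of the start was overlapped had a median of 24 CG dinucleotides in their RefSeq window (1988 genes), and those whose peak was not had 21 (2115 genes). The windows of Acta2 (4) and Des (13) lie below both medians, and that of Des lies above the median of all windows (7). That of Mylk (2) is also below both, but may belong to another start site. Myl9, the other marker with a Control peak within 1 kb of a start, had no window. Whether CG count and overlap are related was not tested.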

How the data were processed

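The deposited data were 2 lists of narrow peaks, 1 per group. The submitters' processing notes name MACS2, ChIPseeker, Bowtie2 and deepTools, and build rn6. Versions, settings and whether the Control samples were pooled are not given there. Per peak, the authors deposited a fold enrichment (a ratio whose denominator is not stated), −log10 p-values and q-values, a score, a summit offset and a distance to the start site. Gene symbols, annotation classes (promoter within 3 kb) and exon numbers are the authors'. The score was not used. The start column counts from 0, and starts are given counted from 1.

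Overlap was at least 1 bp, with intervals from scipy 1.17.1. Pile-up k and background λ were recovered from fold = (k + 1)/(λ + 1) and the Poisson p-value, as MACS2 computes them (a step chosen after the values were seen), for 9505 Myocd-LSD1 peaks and 25491 Control peaks (99.8% and 99.9%), and for all marker peaks. Both steps were checked on simulated data, overlaps against bedtools 2.31.1. Fragments are amplified and not independent molecules. The members and lists were chosen with earlier results of these data known. All members were named, as were the 6 other contractile genes of highest Control fold and paralogs with a peak. Genes beside a marker were named for position.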

Additional observations from a re-analysis of the deposited data

How the results depend on the processing

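No paired analysis was possible because each group has 1 list and its columns carry no replicate number; for the same reason no replicate could be left out. The share of marker Control peaks overlapped was 4.76%. It lay between 4.76% and 5.88% with a reciprocal overlap of 50%, a distance of up to 1000 bp, a q-value of at most 0.01 or the symbol column alone. It also lay there without Control peaks of 3 fragments, a setting chosen after seeing the data. Taking any peak within 50 kb of a start site, other genes' peaks included, gave 15.6% (7 of 45). Over all Control peaks, where it was 22.0%, the share was 14.4% with the reciprocal overlap, 24.4% within 1000 bp and 21.6% at the stricter q-value, and it was not computed for the last 3 settings. When only the 9523 Control peaks of smallest p-value were kept, the markers' share was 0.00% (0 of 7, upper bound 41.0%). The overlapped Mylk peak was not among those kept. Of all Control peaks kept, 38.7% were overlapped, a share below that bound. The shortened list also left 4 markers with a Control peak, 1 (Des) with a Control promoter peak and 21 other contractile genes with a Control peak. The stricter q-value left these counts within 1.5 times, as did the symbol column alone for markers with a peak and a limit of 1000 bp from the start site for promoter peaks. The other settings were not run for these counts. Depth is one limit: a marker peak rested on 27 fragments at most.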
